A study of Homo sapiens with 12 samples.

Results

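The data describe 38 human genes of ribosome biogenesis and the nucleolus in 12 RNA sequencing libraries of cultured melanoma cells. The genes were taken by symbol from a list of 38, and all 38 were found among the 75253 rows of the deposited count table and were among the 29114 genes abundant enough to be tested. Both lines, LOX-IMVI BR and A375, are labelled as human metastatic melanoma lines. In each line 2 libraries came from cells exposed to 6-thio-dG at 5 µM, 2 from cells exposed to BIBR1532 at 25 µM and 2 from control cells, labelled as biological replicates. 6-thio-dG is a modified deoxyguanosine that enters telomeres through telomerase, and BIBR1532 is a small-molecule inhibitor of telomerase that is not a nucleoside. The vehicle given to control cells, the time of exposure, the genotype of the lines and the meaning of BR are not stated by the labels. The comparisons asked how each compound changed these genes in each line, whether the lines differed in that change, and how the untreated lines differed. Beyond the replicate label nothing states that replicates came from separate cultures, so p-values measure the spread between these libraries only.

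Ribosomes are built mainly in the nucleolus. RNA polymerase I copies the ribosomal DNA into a long precursor, box C/D small nucleolar ribonucleoproteins (snoRNPs) guide methyl groups onto it, and assembly factors fold and cut it into the RNAs of the small and the large subunit. Growing tumour cells use this pathway heavily, and many of its genes are known targets of MYC, a transcription factor that binds the letters CACGTG, called the E-box.

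Promoter sequences are shown for 4 genes that were called lower in A375 and hold the E-box close to their start site, as examples chosen with the calls known. They run from 250 bases before to 50 bases after the gene's start, from RefSeq on the build GRCh38.p14, 5′ to 3′ on the strand of the gene, with the E-box in capitals. NOP14, RRP9 and WDR43 were called with both compounds and FBL with BIBR1532. The E-box lies as close to the start in UTP20 and PES1, called with BIBR1532, and in GNL2 and MRTO4, called with neither compound.
NOP14 (chr4:2963357-2963656, - strand): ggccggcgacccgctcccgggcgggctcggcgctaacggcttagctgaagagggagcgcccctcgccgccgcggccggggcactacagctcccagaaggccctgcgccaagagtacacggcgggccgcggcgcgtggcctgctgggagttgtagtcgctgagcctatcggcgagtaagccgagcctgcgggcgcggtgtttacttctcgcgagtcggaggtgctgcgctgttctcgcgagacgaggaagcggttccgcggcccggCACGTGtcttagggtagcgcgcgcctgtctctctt
RRP9 (chr3:51941855-51942154, - strand): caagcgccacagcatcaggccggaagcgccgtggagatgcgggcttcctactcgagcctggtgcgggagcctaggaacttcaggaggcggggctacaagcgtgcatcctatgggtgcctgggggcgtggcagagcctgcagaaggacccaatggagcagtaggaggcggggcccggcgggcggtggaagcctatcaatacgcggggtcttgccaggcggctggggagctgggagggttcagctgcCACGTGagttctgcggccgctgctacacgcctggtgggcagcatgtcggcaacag
WDR43 (chr2:28894417-28894716, + strand): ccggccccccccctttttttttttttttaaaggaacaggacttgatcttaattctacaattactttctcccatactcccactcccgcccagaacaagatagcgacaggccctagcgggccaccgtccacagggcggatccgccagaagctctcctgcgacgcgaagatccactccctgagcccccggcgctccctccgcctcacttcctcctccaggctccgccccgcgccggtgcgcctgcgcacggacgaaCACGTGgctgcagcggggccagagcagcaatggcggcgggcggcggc
FBL (chr19:39846330-39846629, - strand): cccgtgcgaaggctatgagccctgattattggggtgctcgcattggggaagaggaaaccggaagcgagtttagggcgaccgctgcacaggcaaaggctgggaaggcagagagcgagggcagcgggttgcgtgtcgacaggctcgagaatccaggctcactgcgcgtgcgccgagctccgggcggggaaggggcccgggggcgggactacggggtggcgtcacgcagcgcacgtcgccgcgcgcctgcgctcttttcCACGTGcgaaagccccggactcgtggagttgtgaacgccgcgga
The promoter of NPM1, a gene called lower in A375 with BIBR1532, is set beside them as one that holds no CACGTG.
NPM1 (chr5:171387599-171387898, + strand): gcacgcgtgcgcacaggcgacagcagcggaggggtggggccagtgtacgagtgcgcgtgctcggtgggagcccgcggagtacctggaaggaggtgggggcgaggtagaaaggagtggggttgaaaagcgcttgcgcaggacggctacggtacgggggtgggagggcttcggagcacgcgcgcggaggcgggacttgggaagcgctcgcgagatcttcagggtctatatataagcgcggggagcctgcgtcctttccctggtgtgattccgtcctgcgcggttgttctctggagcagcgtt
A promoter was found for 31 of the 38 genes; NOLC1, NOP58, RRP12, BOP1, RRS1, RRP1B and DDX18 had no entry. CACGTG, which reads the same on both strands, was present in 11 of the 31 promoters (35.48%), against 7.43% of all 27305 promoters and 9.69% of the 11017 promoters of tested genes. The 11 were FBL, NOP14, RRP9, WDR43, UTP20, BYSL, NOP2, PES1, MRTO4, EBNA1BP2 and GNL2, each with 1 copy. CCAAT, read on both strands, was in 35.48% of the 31, against 35.7% of all promoters and 36.37% of those of tested genes. CCGCCC, also read on both strands, was in 67.74% of the 31, against 44.59% of all promoters and 67.07% of those of tested genes. Each string was counted by itself, also where matches overlap, and a match is a string of letters and not a measured binding site.

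Levels below are CPM, read counts relative to the library total, scaled between libraries by the trimmed mean of M values (TMM) and not divided by transcript length, so they compare libraries and not genes. Total counts were 11813388 to 25822381 per library. The 38 genes together took 0.725% and 0.749% of the counts in LOX-IMVI BR with 6-thio-dG, 0.601% and 0.629% with BIBR1532, and 0.617% and 0.613% in the control. In A375 they took 0.461% and 0.622% with 6-thio-dG, 0.439% and 0.470% with BIBR1532, and 0.786% and 0.746% in the control, so all 4 treated A375 libraries lay below both controls. In bulk RNA, fewer cells that express a gene and less RNA per cell cannot be told apart. Markers of the melanocyte lineage were low in LOX-IMVI BR (1 of 7 with a median of at least 1 CPM, summed level 8.99 to 22.6 CPM) and higher in A375 (4 of 7, 312 to 1463 CPM). None of 4 leukocyte markers reached that median in either line. In each line 3 of 4 fibroblast and 3 of 4 keratinocyte markers reached it, with keratinocyte sums of 7.17 to 13.8 CPM in LOX-IMVI BR and 15.0 to 25.4 CPM in A375. Of 4 endothelial markers, 1 reached it in LOX-IMVI BR and 2 in A375. In A375 the melanocyte sum was 312 to 576 CPM with 6-thio-dG, 1301 to 1463 CPM with BIBR1532 and 571 to 644 CPM in the control. Most of it was SOX10, at 1412 and 1248 CPM with BIBR1532 against 512 and 590 CPM in control cells, while MITF had 2.92 and 14.2 CPM with 6-thio-dG, 6.46 and 9.65 CPM with BIBR1532, and 45.6 and 34.5 CPM in control cells. The summed level of 4 endothelial markers in A375 was 4.09 to 5.98 CPM with 6-thio-dG, 7.47 to 7.89 CPM with BIBR1532 and 2.35 to 2.39 CPM in the control, with PECAM1 near 0 throughout. The sum of 4 fibroblast markers in LOX-IMVI BR, mostly PDGFRA, was 7.66 to 8.38 CPM with 6-thio-dG, 28.6 to 32.9 CPM with BIBR1532 and 60.9 to 63.4 CPM in the control. The part of these markers in the results was not tested.

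Several A375 libraries stood apart from their partner. The median difference between the replicates of a group, over the 38 genes and without sign, was 0.07 on the log2 scale in LOX-IMVI BR with 6-thio-dG, 0.09 with BIBR1532 and 0.06 in the control. In A375 it was 0.55 with 6-thio-dG, 0.16 with BIBR1532 and 0.60 in the control. The A375 differences ran along the GC content of the transcript, which was 38.7% to 65.2% for these genes. Of the 18 genes with a GC content under 49.1%, the median of the tested genes with symbols, 17 were lower in the first than in the second A375 library with 6-thio-dG, with a median difference of -1.63 on the log2 scale. Of the other 20 genes, 17 were lower in the first than in the second A375 control library, with a median of -0.94. Across the 38 genes, as a description, Pearson's r between GC content and the difference between replicates was 0.852 in A375 with 6-thio-dG, 0.829 with BIBR1532 and -0.630 in the control. The same r was -0.132, -0.029 and -0.014 in the LOX-IMVI BR groups. The part of this difference in the results below was not tested beyond the refits that are given with them.

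**Figure D1:**
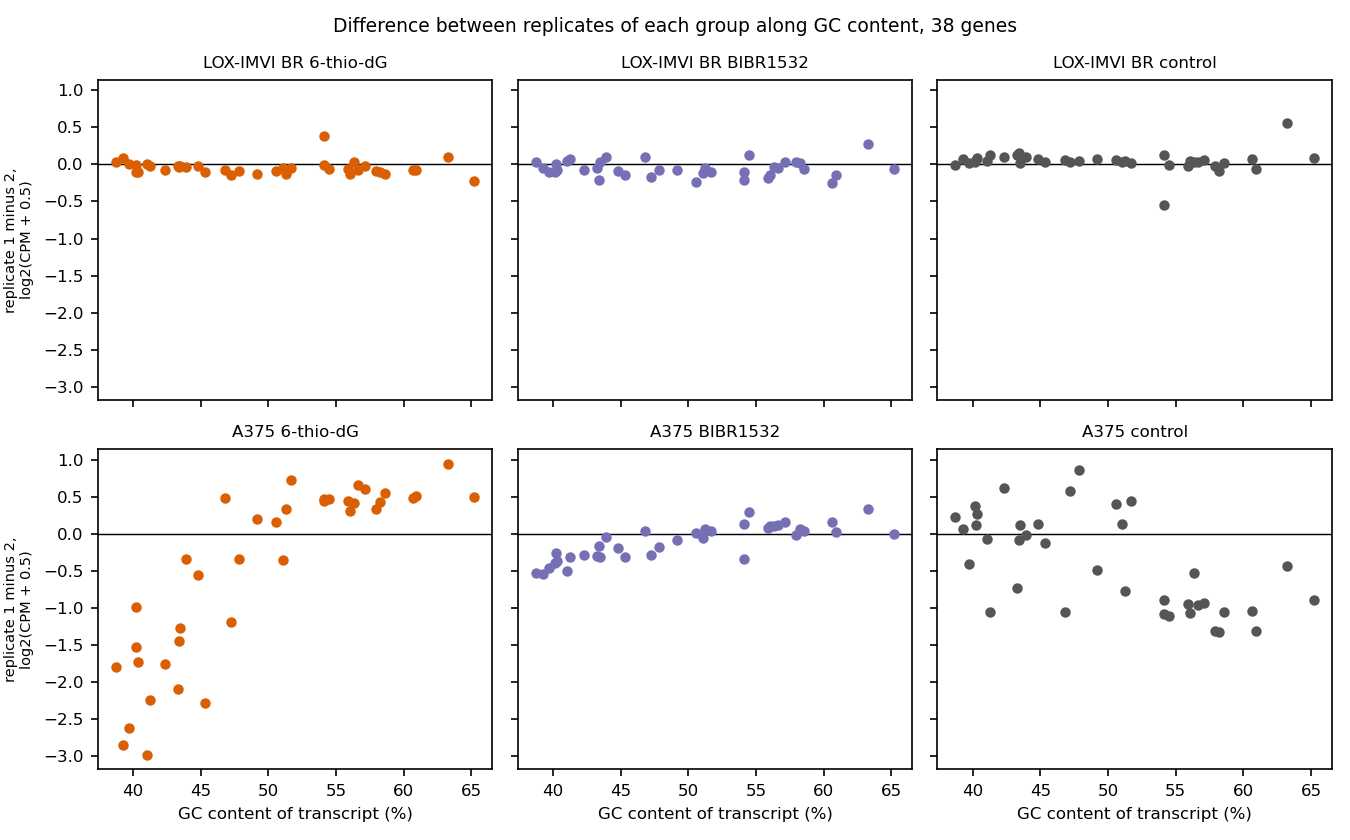
Difference between replicate 1 and replicate 2 on the scale of log2(CPM + 0.5), on the vertical axis, against the GC content of the transcript in percent, for the 38 genes (points) in each of the 6 groups (panels). In A375 with 6-thio-dG the genes of low GC content lie far below 0 (r = 0.852), in the A375 control those of high GC content lie below 0 (r = -0.630), and in LOX-IMVI BR most points lie near 0.

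**Figure D2:**
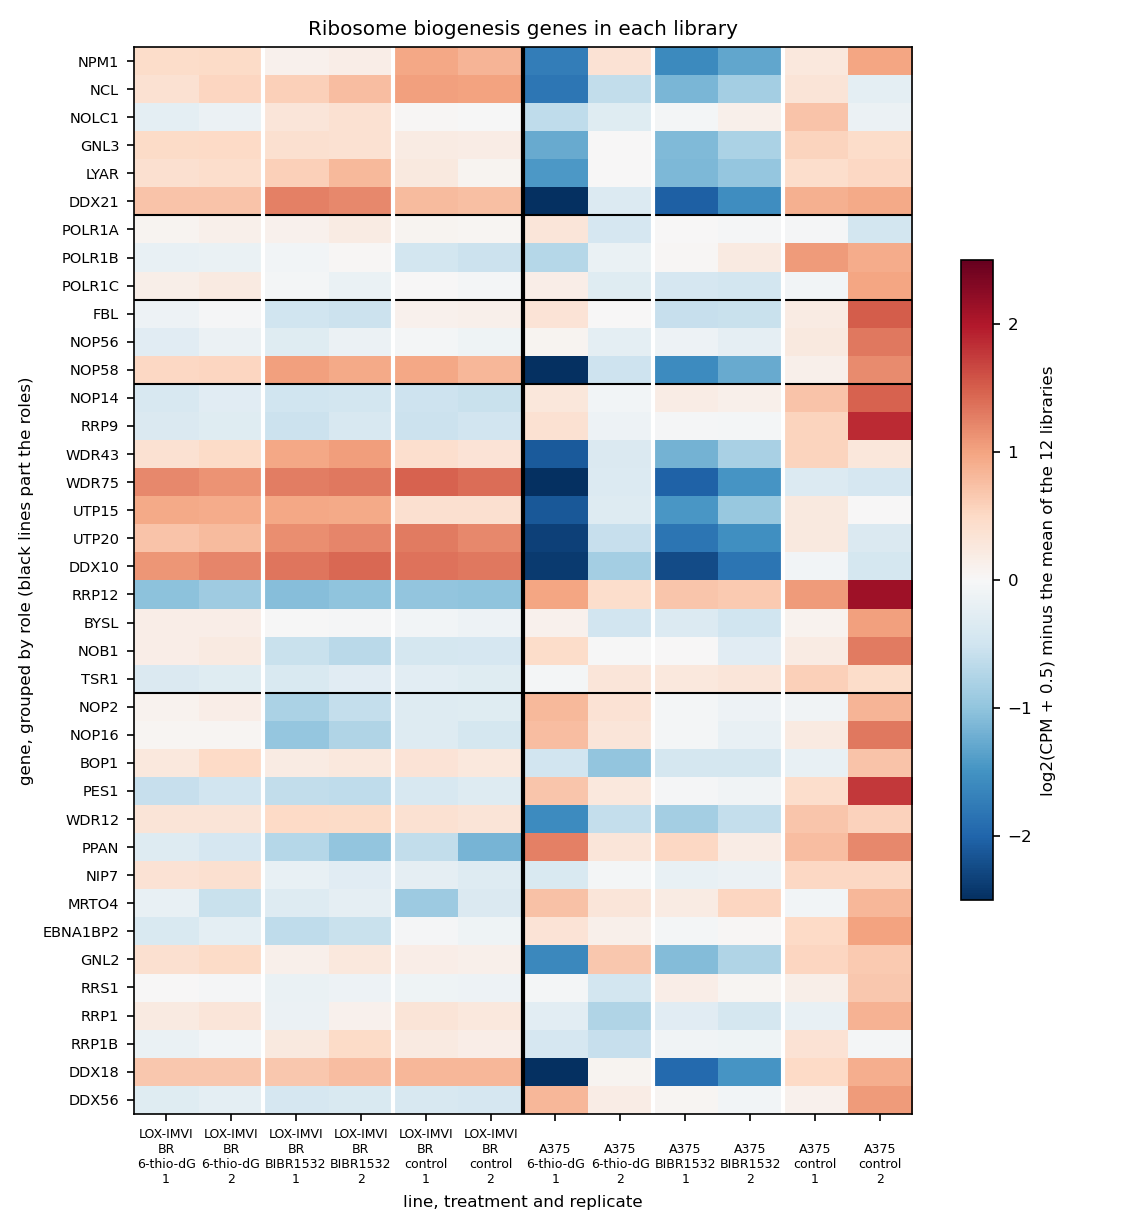
Level of each of the 38 genes (lines, grouped by role) in each of the 12 libraries (columns, LOX-IMVI BR on the left and A375 on the right), as log2(CPM + 0.5) minus the mean of the gene over the 12 libraries. The A375 libraries with BIBR1532 and the first with 6-thio-dG are blue for many genes of low GC content such as DDX21 and DDX10, and the second A375 control library is the reddest for RRP9 and PES1.

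In A375, 9 of the 38 genes were lower and none was higher with 6-thio-dG than in control cells, at a Benjamini-Hochberg adjusted p under 0.05 in edgeR's quasi-likelihood test. Of all genes tested, 8.21% were called lower and 9.86% higher, and of those with symbols 12.9% lower. The median log2 fold change of the 38 was -0.87, against 0.03 over all genes tested and -0.25 over those with symbols, and 35 of the 38 were below 0. With BIBR1532 17 of the 38 were lower and none was higher, against 7.29% of all genes and 10.3% of genes with symbols called lower and 8.49% of all genes called higher. Its median was -1.03, against -0.04 over all genes and -0.15 over those with symbols, and 37 of 38 were below 0. Both libraries with 6-thio-dG lay below both controls for 24 genes, against 20.5% of all genes, and both with BIBR1532 for 33, against 27.3% of all genes. The comparisons use the same 2 control libraries, so their calls are not independent of each other, and the values of both stand side by side below.

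These calls depended on the spread that was assumed and on single libraries. A fit of the A375 libraries alone, with 3 residual degrees of freedom, called none of the 38 with either compound (smallest adjusted p 0.0665 for 6-thio-dG and 0.0678 for BIBR1532), where 2.02% and 0.558% of all genes were called lower. With 1 library left out, the genes called changed, and so did the number called among all genes. The median log2 fold change of the 38 then ran from -1.06 to -0.60 with 6-thio-dG and from -1.33 to -0.58 with BIBR1532. For either compound it was nearest 0, with fewer of the 38 called, without the second control library. The BIBR1532 calls were lost without either BIBR1532 library, where calls among all genes fell as well. After removal of the trend with GC content, 24 and 29 genes were lower, against 19.8% and 17.7% of all genes in that fit, and the DESeq2 test called 20 and 24, against 10.4% and 7.7% of all genes. Upper-quartile scaling moved the median of all genes to 0.43 with 6-thio-dG and to 0.18 with BIBR1532, with medians of the 38 at -0.49 and -0.79. With it 5 and 13 of the 38 were called lower, against 1337 and 1684 of all 29114 genes.

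**Figure D3:**
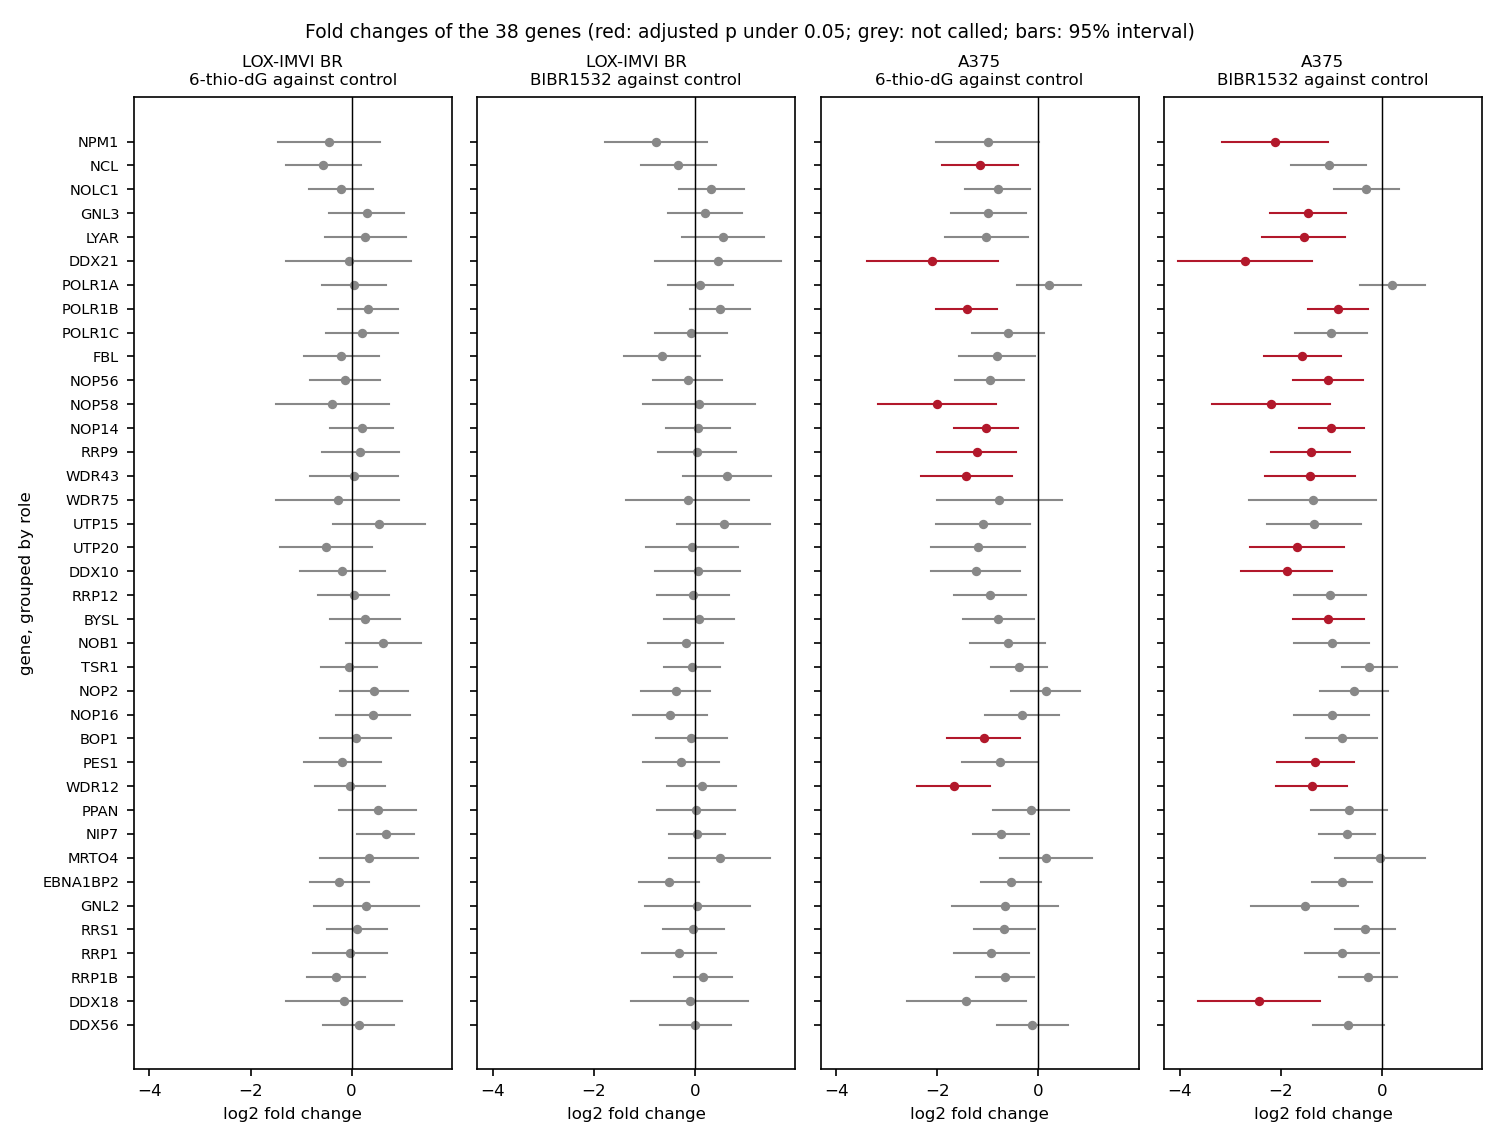
Log2 fold change of each of the 38 genes (dots, grouped by role) with its 95% interval (bars), for each compound over control in LOX-IMVI BR (left pair of panels) and A375 (right pair). Red marks an adjusted p under 0.05 and grey marks genes not called. In A375 35 and 37 of 38 estimates lie below 0, and in LOX-IMVI BR they lie on both sides of 0 with none called.

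Among the nucleolar scaffold and multifunctional proteins, 2 of 6 fell with 6-thio-dG and 4 of 6 with BIBR1532 in A375. The shares of all genes with symbols called lower were 12.9% and 10.3%. NPM1 encodes nucleophosmin, an abundant nucleolar chaperone. In A375 it had 63.0 and 270.3 CPM with 6-thio-dG, 69.1 and 85.3 CPM with BIBR1532, and 252 and 418 CPM in control cells. Both BIBR1532 libraries lay far below both controls, while the second 6-thio-dG library lay between them. The log2 fold change was -1.01 ± 0.477 (SE) with 6-thio-dG, which was not called (adjusted p = 0.155), and -2.12 ± 0.492 with BIBR1532 (edgeR adjusted p = 0.0125). Without the second control library the BIBR1532 call was lost (adjusted p = 0.118). NPM1 has processed pseudogenes in the genome that can share its reads.

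NCL encodes nucleolin, an RNA-binding protein of ribosomal RNA transcription and processing. It had 270.0 and 617 CPM with 6-thio-dG, 429.8 and 526 CPM with BIBR1532, and 1183 and 795 CPM in control cells. All 4 treated libraries were below both controls. NCL fell with 6-thio-dG (-1.16 ± 0.351, edgeR adjusted p = 0.0344), a call kept in 8 of 22 alternatives, and had -1.05 ± 0.350 with BIBR1532 (adjusted p = 0.0542). The call was lost without the first 6-thio-dG library (adjusted p = 0.154), the first control library (0.137), either BIBR1532 library or any LOX-IMVI BR library (0.0501 to 0.0541).

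DDX21 encodes an RNA helicase of ribosomal RNA transcription and processing. It had 28.8 and 230.3 CPM with 6-thio-dG, 70.5 and 99.8 CPM with BIBR1532, and 541 and 569 CPM in control cells. The first 6-thio-dG library held the lowest level and the controls were close to each other. DDX21 fell with both compounds, by log2 fold changes of -2.10 ± 0.603 (edgeR adjusted p = 0.0287) and -2.70 ± 0.617 (edgeR adjusted p = 0.0117). Either call was lost without either control library, with adjusted p between 0.0604 and 0.135, and that of 6-thio-dG also without the second BIBR1532 library (adjusted p = 0.0525).

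GNL3 encodes nucleostemin, a nucleolar GTPase, and had 67.0 and 162 CPM with 6-thio-dG, 74.0 and 91.7 CPM with BIBR1532, and 237 and 219 CPM in control cells. LYAR, a nucleolar zinc-finger protein, had 11.8 and 33.0 CPM with 6-thio-dG, 14.8 and 16.6 CPM with BIBR1532, and 44.4 and 47.2 CPM in control cells. For both genes every treated library lay below both controls, and only BIBR1532 gave a call, with -1.46 ± 0.352 for GNL3 (edgeR adjusted p = 0.0143) and -1.54 ± 0.386 for LYAR (edgeR adjusted p = 0.0172). The LYAR call was lost without the second control library (adjusted p = 0.0549). With 6-thio-dG their adjusted p was 0.0611 and 0.0738. NOLC1, a chaperone of snoRNPs, was called with neither compound. It had 301 and 381 CPM with 6-thio-dG, 454 and 514 CPM with BIBR1532, and 769 and 424 CPM in control cells, and the control libraries differed widely. Its log2 fold change was -0.81 (adjusted p = 0.076) with 6-thio-dG and -0.30 (adjusted p = 0.52) with BIBR1532.

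Of the RNA polymerase I subunits, POLR1B alone was called in A375, with both compounds, beside 12.9% and 10.3% of all genes with symbols called lower. POLR1B encodes the second largest subunit, part of the catalytic core. It had 74.7 and 109.6 CPM with 6-thio-dG, 126 and 144 CPM with BIBR1532, and 258 and 236 CPM in control cells. The groups did not overlap, with every 6-thio-dG library below every BIBR1532 library and every BIBR1532 library below every control. The log2 fold change was -1.42 ± 0.282 with 6-thio-dG (edgeR adjusted p = 0.00418), kept in 21 of 22 alternatives. With BIBR1532 it was -0.87 ± 0.278 (edgeR adjusted p = 0.0467), kept in 6 of 22. Neither call held in the fit of A375 alone (edgeR adjusted p = 0.0665 and 0.223). The BIBR1532 call was lost without the first control library or any LOX-IMVI BR library (adjusted p = 0.0502 to 0.0952).

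POLR1A, the largest subunit, had 144 and 87.0 CPM with 6-thio-dG, 117 and 114 CPM with BIBR1532, and 115 and 84.4 CPM in control cells. The groups overlapped, and the log2 fold changes were 0.21 (interval -0.42 to 0.85) with 6-thio-dG and 0.21 (interval -0.42 to 0.85) with BIBR1532. POLR1C, a subunit shared with RNA polymerase III, had 114 and 81.1 CPM with 6-thio-dG, 74.9 and 72.8 CPM with BIBR1532, and 96.2 and 200.3 CPM in control cells. The second control library was the highest and the first overlapped with the 6-thio-dG libraries. POLR1C had -0.60 (adjusted p = 0.219) with 6-thio-dG and -1.0 (adjusted p = 0.0548) with BIBR1532.

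Of the core proteins of the box C/D snoRNP, 1 of 3 fell with 6-thio-dG and 3 of 3 with BIBR1532 in A375. Beside them stand 12.9% and 10.3% of all genes with symbols called lower. FBL encodes fibrillarin, the methyltransferase of the particle. It had 196 and 155 CPM with 6-thio-dG, 103 and 105 CPM with BIBR1532, and 178 and 442 CPM in control cells. The BIBR1532 libraries were close together and lay below both controls, while the 6-thio-dG libraries lay on either side of the first control. FBL had -0.82 ± 0.353 with 6-thio-dG (adjusted p = 0.12) and fell by 1.57 ± 0.359 on the log2 scale with BIBR1532 (edgeR adjusted p = 0.011).

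NOP58, a scaffold protein of the same particle, had 6.51 and 32.8 CPM with 6-thio-dG, 15.5 and 19.2 CPM with BIBR1532, and 51.4 and 107 CPM in control cells. Each treated library was below both controls, and the first 6-thio-dG library was the lowest. It fell with 6-thio-dG (-2.01 ± 0.544, edgeR adjusted p = 0.0219) and with BIBR1532 (-2.19 ± 0.546, edgeR adjusted p = 0.0177). Without the second control library neither call held (adjusted p = 0.197 and 0.166). NOP56, its partner scaffold, had 499 and 403 CPM with 6-thio-dG, 437 and 405 CPM with BIBR1532, and 567 and 1195 CPM in control cells. The treated libraries were close together below both controls, and the second control library was far above the first. NOP56 had -0.97 ± 0.323 with 6-thio-dG, just short of a call (adjusted p = 0.0509), and -1.07 ± 0.324 with BIBR1532 (edgeR adjusted p = 0.0385), a call kept in 10 of 22 alternatives. It was lost without the second control library (adjusted p = 0.177) or any LOX-IMVI BR library (0.0647 to 0.0673).

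**Figure D4:**
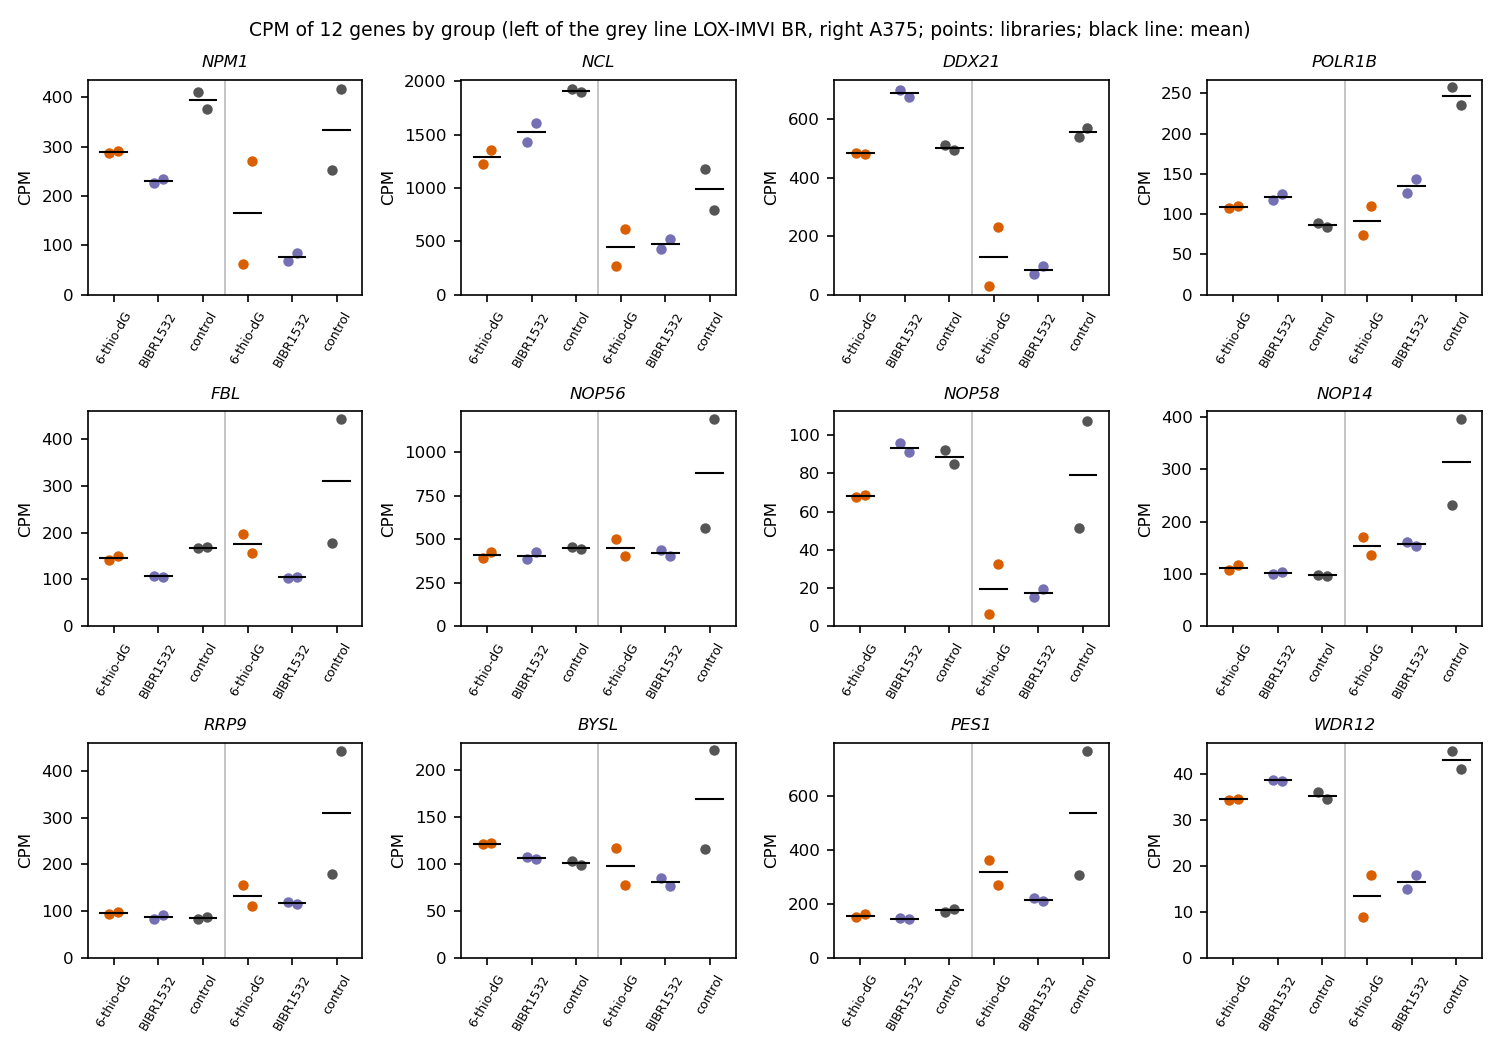
CPM (vertical axis, from 0) of 12 of the genes in each group, with LOX-IMVI BR left and A375 right of the grey line. Points are the 2 libraries and the black line is their mean. POLR1B, DDX21 and WDR12 show A375 controls close together above all treated A375 libraries, and FBL, RRP9 and PES1 show a second A375 control library far above the first.

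Among the 11 genes of small subunit maturation, 3 fell with 6-thio-dG and 6 with BIBR1532 in A375. Called lower were 12.9% and 10.3% of all genes with symbols. All 11 estimates were below 0 with either compound. NOP14, an assembly factor of the small subunit processome, had 171 and 135 CPM with 6-thio-dG, 160.2 and 154 CPM with BIBR1532, and 232 and 396 CPM in control cells. RRP9, a protein of the U3 snoRNP, had 157 and 110.0 CPM with 6-thio-dG, 119 and 116 CPM with BIBR1532, and 179 and 442 CPM in control cells. Every treated library was below both controls for either gene, and the second control was far above the first. NOP14 had -1.03 ± 0.299 (edgeR adjusted p = 0.0284) and -1.0 ± 0.299 (edgeR adjusted p = 0.0364), and RRP9 had -1.22 ± 0.364 (edgeR adjusted p = 0.0322) and -1.40 ± 0.366 (edgeR adjusted p = 0.0205), with 6-thio-dG and BIBR1532 in that order. Without the second control library none of the 4 calls held, with adjusted p between 0.0785 and 0.236. NOP14 lost its 6-thio-dG call also without the first BIBR1532 library or any of 4 LOX-IMVI BR libraries (0.0517 to 0.0536), and its BIBR1532 call without any LOX-IMVI BR library (0.0669 to 0.0701). RRP9 lost its 6-thio-dG call also without the second 6-thio-dG library (adjusted p = 0.0758), the first BIBR1532 library or either LOX-IMVI BR library with 6-thio-dG (0.0508 to 0.0512).

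WDR43, WDR75 and UTP15 belong to the group of proteins that joins the precursor during its transcription. WDR43 had 18.6 and 62.8 CPM with 6-thio-dG, 35.6 and 46.0 CPM with BIBR1532, and 119.6 and 99.1 CPM in control cells. The treated libraries were all below the controls, the first 6-thio-dG library most of all. WDR43 fell with 6-thio-dG (-1.42 ± 0.420, edgeR adjusted p = 0.0304) and with BIBR1532 (-1.42 ± 0.419, edgeR adjusted p = 0.0339). Neither call held without either control library (adjusted p = 0.078 to 0.126). That of 6-thio-dG was also lost without the first 6-thio-dG (adjusted p = 0.0508) or the second BIBR1532 library (0.0518), and that of BIBR1532 without any LOX-IMVI BR library (0.0523 to 0.0534). WDR75 had 5.09 and 39.8 CPM with 6-thio-dG, 12 and 17.7 CPM with BIBR1532, and 39.3 and 37.5 CPM in control cells, and UTP15 had 7.35 and 26.7 CPM with 6-thio-dG, 11.8 and 17.2 CPM with BIBR1532, and 39.5 and 33.7 CPM in control cells. Neither was called, at adjusted p of 0.372 and 0.123 for WDR75 and of 0.0922 and 0.0507 for UTP15.

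DDX10, an RNA helicase whose yeast counterpart acts in small subunit processing, had 3.76 and 11.8 CPM with 6-thio-dG, 4.26 and 5.77 CPM with BIBR1532, and 20.9 and 16.0 CPM in control cells. It had the smallest adjusted p of the 38 with BIBR1532 (-1.88 ± 0.419, edgeR adjusted p = 0.00961), and -1.24 ± 0.413 with 6-thio-dG (adjusted p = 0.0501). UTP20, a large scaffold of the processome, had 11.4 and 39.4 CPM with 6-thio-dG, 16.4 and 20.1 CPM with BIBR1532, and 70.6 and 45.9 CPM in control cells. Both genes were lower in every treated library than in either control. UTP20 fell with BIBR1532 (-1.68 ± 0.438, edgeR adjusted p = 0.0208) and had -1.20 with 6-thio-dG (adjusted p = 0.0682). Its call was lost without the first (adjusted p = 0.117) or the second control library (0.0501).

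BYSL, bystin, a factor of late small subunit assembly, had 117 and 77.2 CPM with 6-thio-dG, 85.3 and 76.3 CPM with BIBR1532, and 116 and 222 CPM in control cells. Its first control library lay between the 6-thio-dG libraries. BYSL had -1.06 ± 0.330 with BIBR1532 (edgeR adjusted p = 0.0424), lost without the second control library (adjusted p = 0.207) or any LOX-IMVI BR library (0.0717 to 0.0748), and -0.79 with 6-thio-dG (adjusted p = 0.106). NOB1, the endonuclease that makes the final cut of the small subunit RNA, had 72.2 and 51.9 CPM with 6-thio-dG, 52.4 and 42.5 CPM with BIBR1532, and 59.7 and 129 CPM in control cells. Only the second control library stood clear of the rest. NOB1 had -0.60 (adjusted p = 0.239) with 6-thio-dG and -0.99 (adjusted p = 0.0662) with BIBR1532. RRP12 and TSR1, factors of subunit export and late maturation, were called with neither compound, RRP12 at -0.95 with 6-thio-dG against -1.02 with BIBR1532 and TSR1 at -0.39 against -0.24.

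Among the 15 genes of large subunit maturation, 2 fell with 6-thio-dG and 3 with BIBR1532 in A375, beside 12.9% and 10.3% of all genes with symbols called lower. WDR12, BOP1 and PES1 form the PeBoW complex, which is needed to process the large subunit RNA. WDR12 had 8.85 and 18.1 CPM with 6-thio-dG, 15.0 and 18.0 CPM with BIBR1532, and 45.1 and 41.3 CPM in control cells. All treated libraries were far below the controls, which were close together. WDR12 fell with 6-thio-dG (-1.68 ± 0.335, edgeR adjusted p = 0.0044, kept in 21 of 22 alternatives) and with BIBR1532 (-1.39 ± 0.331, edgeR adjusted p = 0.0136, kept in 17). After removal of the GC trend the BIBR1532 call was lost (edgeR adjusted p = 0.072). Neither call held in the fit of A375 alone (edgeR adjusted p = 0.0736 and 0.134).

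BOP1 had 10.2 and 7.05 CPM with 6-thio-dG, 10.5 and 10.5 CPM with BIBR1532, and 12.7 and 24.0 CPM in control cells. It fell with 6-thio-dG (-1.08 ± 0.338, edgeR adjusted p = 0.0389, kept in 9 of 22) and had -0.80 with BIBR1532 (adjusted p = 0.114). The call was lost without the second control library (adjusted p = 0.176), the second 6-thio-dG library (0.0752), the first BIBR1532 library or any LOX-IMVI BR library (0.0632 to 0.0655). PES1 had 363 and 269 CPM with 6-thio-dG, 221 and 211 CPM with BIBR1532, and 307 and 765 CPM in control cells. The second control library was far above the first, and the 6-thio-dG libraries lay on either side of the first. PES1 fell with BIBR1532 (-1.31 ± 0.359, edgeR adjusted p = 0.0254) but not without the second control library (adjusted p = 0.154), and had -0.76 with 6-thio-dG (adjusted p = 0.147). The 3 genes of the complex thus gave 3 different sets of calls, and the difference between those sets was not tested.

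DDX18, an RNA helicase of large subunit assembly, had 18.2 and 114 CPM with 6-thio-dG, 27.8 and 38.4 CPM with BIBR1532, and 153 and 203 CPM in control cells. The first 6-thio-dG library and both BIBR1532 libraries were far below the controls, and the second 6-thio-dG library was nearer to them. DDX18 fell with BIBR1532 (-2.43 ± 0.567, edgeR adjusted p = 0.013) and had -1.43 ± 0.549 with 6-thio-dG (adjusted p = 0.0844). Its call was lost without the first (adjusted p = 0.0507) or the second control library (0.102). The other 11, namely NOP2, NOP16, PPAN, NIP7, MRTO4, EBNA1BP2, GNL2, RRS1, RRP1, RRP1B and DDX56, were called with neither compound. Their estimates ran from -0.93 for RRP1 to 0.15 for MRTO4 with 6-thio-dG and from -1.53 for GNL2 to -0.03 for MRTO4 with BIBR1532. Above 0 with 6-thio-dG were NOP2 (0.14), a methyltransferase of the large subunit RNA, and MRTO4 (0.15), which helps to place the ribosomal stalk. MRTO4 had low levels in every library, at 3.09 and 2.15 CPM with 6-thio-dG, 1.97 and 2.62 CPM with BIBR1532, and 1.57 and 3.35 CPM in control cells. PPAN overlaps a readthrough transcript with its neighbour, so its reads cannot be assigned to it alone.

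The compounds were compared directly in A375, where none of the 38 was called between 6-thio-dG and BIBR1532, against 16% of all genes, with 3 at an unadjusted p under 0.05 and none in DESeq2. The median log2 fold change of 6-thio-dG over BIBR1532 was 0.24, against 0.13 over all genes. The smallest adjusted p was that of NPM1, at 1.11 ± 0.478 (adjusted p = 0.13), with an interval of 0.09 to 2.13. POLR1B had -0.55 ± 0.277 (interval -1.14 to 0.04), FBL 0.76 ± 0.353 and DDX21 0.61 ± 0.583. NOP58 had 0.18 ± 0.529, but -1.43 (adjusted p = 0.0236) without the second 6-thio-dG library. Doses were 5 µM and 25 µM, so the compounds were not compared at a matched dose. Removal of the GC trend gave 8 genes higher with 6-thio-dG than with BIBR1532, against 13.5% of all genes in that fit.

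In LOX-IMVI BR none of the 38 genes was called with either compound when all 12 libraries shared the estimate of spread. With 6-thio-dG 17% of all genes were called, the smallest adjusted p of the 38 was 0.0942 for NIP7, and 1 of them had an unadjusted p under 0.05. With BIBR1532 3.59% of all genes were called, the smallest was 0.408, and none had an unadjusted p under 0.05. DESeq2 called none of the 38 with either. Medians were 0.05 with 6-thio-dG and 0.02 with BIBR1532, against 0.05 and 0.04 over all genes. With 6-thio-dG 36 of 38 estimates were within 1.5-fold of the control, and with BIBR1532 35 of 38. Over the 38, the lowest lower limit and the highest upper limit of the 95% intervals were -1.50 (WDR75) and 1.45 (UTP15) with 6-thio-dG and -1.79 (NPM1) and 1.70 (DDX21) with BIBR1532, so these fits do not show that the genes were unchanged.

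The replicates of LOX-IMVI BR were far closer than those of A375, and a fit of its 6 libraries alone called many of the 38. The common coefficient of biological variation was 4.55% in LOX-IMVI BR alone, 36.1% in A375 alone and 25.8% over all 12 libraries. In LOX-IMVI BR alone, 16 of the 38 were higher and 12 lower with 6-thio-dG, where 32% and 30.8% of all genes were called higher and lower. With BIBR1532 7 were higher and 13 lower, where 23.1% and 21.8% of all genes were. Whether the 38 differed from that background was not tested.

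NPM1 in LOX-IMVI BR had 287 and 291 CPM with 6-thio-dG, 226 and 235 CPM with BIBR1532, and 412 and 377 CPM in control cells. All treated libraries were below both controls, the BIBR1532 libraries most. In the line alone its log2 fold change was -0.44 with 6-thio-dG (edgeR adjusted p = 1.26e-08) and -0.83 with BIBR1532 (edgeR adjusted p = 4.17e-14), while over all 12 libraries the adjusted p was 0.582 and 0.491. NCL had 1228 and 1361 CPM with 6-thio-dG, 1436 and 1609.5 CPM with BIBR1532, and 1930.3 and 1896 CPM in control cells, again below both controls in every treated library. In the line alone NCL had -0.55 (edgeR adjusted p = 4.48e-10) and -0.39 (edgeR adjusted p = 6.6e-07). NOLC1 had 399 and 424 CPM with 6-thio-dG, 577 and 611 CPM with BIBR1532, and 481 and 468 CPM in control cells, lower than the control with 6-thio-dG and higher with BIBR1532. DDX21 had 484 and 482 CPM with 6-thio-dG, 700.5 and 677 CPM with BIBR1532, and 511 and 494 CPM in control cells, with the BIBR1532 libraries above the controls.

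For the polymerase genes the differences were small. POLR1B had 108 and 110.2 CPM with 6-thio-dG, 118 and 126 CPM with BIBR1532, and 88.9 and 84.7 CPM in control cells, with all treated libraries above both controls. In the line alone it had 0.34 (edgeR adjusted p = 2.45e-06) and 0.43 (edgeR adjusted p = 9.34e-08). POLR1A had 123 and 127 CPM with 6-thio-dG, 125 and 135 CPM with BIBR1532, and 122 and 120.0 CPM in control cells and POLR1C had 111 and 117 CPM with 6-thio-dG, 97.0 and 90.3 CPM with BIBR1532, and 101 and 97.4 CPM in control cells. The POLR1A groups lay close together, and POLR1C was above the controls with 6-thio-dG and below them with BIBR1532.

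FBL had 141 and 149.8 CPM with 6-thio-dG, 108 and 106 CPM with BIBR1532, and 166 and 169 CPM in control cells, lowest in the BIBR1532 libraries. In the line alone it had -0.19 (edgeR adjusted p = 0.00224) and -0.70 (edgeR adjusted p = 3.92e-12). NOP56 had 392 and 429.5 CPM with 6-thio-dG, 385 and 428 CPM with BIBR1532, and 457 and 442 CPM in control cells, and NOP58 had 67.5 and 68.5 CPM with 6-thio-dG, 96.0 and 90.9 CPM with BIBR1532, and 92.4 and 84.7 CPM in control cells. NOP58 was below both controls with 6-thio-dG and overlapped with them with BIBR1532.

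Among assembly factors in LOX-IMVI BR, NIP7, a factor of early large subunit assembly, had 191 and 197 CPM with 6-thio-dG, 129.6 and 121 CPM with BIBR1532, and 126 and 118 CPM in control cells. The 6-thio-dG libraries were far above the rest, and in the line alone NIP7 had the smallest adjusted p of the 38 with 6-thio-dG (0.68, edgeR adjusted p = 3.94e-12). NOB1 had 58.3 and 60.9 CPM with 6-thio-dG, 35.4 and 32.5 CPM with BIBR1532, and 38.5 and 38.8 CPM in control cells. NOP16, a nucleolar factor of large subunit assembly, had 56.4 and 56.7 CPM with 6-thio-dG, 27.8 and 32.1 CPM with BIBR1532, and 43.9 and 40.3 CPM in control cells. NOP2 had 189 and 198 CPM with 6-thio-dG, 102 and 116 CPM with BIBR1532, and 142 and 144 CPM in control cells. For these 3 genes the 6-thio-dG libraries were the highest and the BIBR1532 libraries the lowest. Their log2 fold changes of 6-thio-dG over BIBR1532 were 0.81 ± 0.349, 0.92 ± 0.346 and 0.82 ± 0.319 over all 12 libraries (adjusted p = 0.118, 0.0751 and 0.0823). Between the compounds in LOX-IMVI BR none of the 38 was called over all 12 libraries, against 20.6% of all genes, with 4 at an unadjusted p under 0.05 and none in DESeq2. In the line alone 20 were higher with 6-thio-dG and 9 lower, against 33.9% and 33% of all genes.

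WDR43 in LOX-IMVI BR had 105 and 113 CPM with 6-thio-dG, 159 and 167 CPM with BIBR1532, and 108 and 102 CPM in control cells. UTP15 had 65.0 and 63.7 CPM with 6-thio-dG, 66.1 and 64.8 CPM with BIBR1532, and 44.2 and 44.3 CPM in control cells. WDR43 was above both controls with BIBR1532 and overlapped with them with 6-thio-dG, and UTP15 was above them with both. Fitted alone, the line gave WDR43 0.07 (edgeR adjusted p = 0.299) and 0.58 (edgeR adjusted p = 3.49e-10), and UTP15 0.55 (edgeR adjusted p = 3.55e-09) and 0.51 (edgeR adjusted p = 6.28e-08), with 6-thio-dG and BIBR1532 in that order.

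BYSL had 121 and 122 CPM with 6-thio-dG, 108 and 105 CPM with BIBR1532, and 103 and 98.8 CPM in control cells, and BOP1 had 17.5 and 20.6 CPM with 6-thio-dG, 16.7 and 17.5 CPM with BIBR1532, and 18.6 and 17.4 CPM in control cells. PES1 had 149.8 and 160.4 CPM with 6-thio-dG, 147 and 144 CPM with BIBR1532, and 171 and 181 CPM in control cells, below both controls with either compound. WDR12 had 34.5 and 34.7 CPM with 6-thio-dG, 38.8 and 38.6 CPM with BIBR1532, and 36.1 and 34.6 CPM in control cells, within a narrow range in all 6 libraries.

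A direct test compared each compound's effect between LOX-IMVI BR and A375. For 6-thio-dG, 2 of the 38 differed, both with the higher value in LOX-IMVI BR, against 2.48% of all genes called in that direction. POLR1B had log2 fold changes of 0.33 in LOX-IMVI BR and -1.42 in A375, a difference of 1.75 ± 0.394 (edgeR adjusted p = 0.0183). NIP7 had 0.67 in LOX-IMVI BR and -0.73 in A375, a difference of 1.41 ± 0.370 (edgeR adjusted p = 0.0382). For BIBR1532, LYAR alone differed, against 2.09% of all genes called higher, with 0.55 in LOX-IMVI BR and -1.54 in A375, a difference of 2.10 ± 0.538 (edgeR adjusted p = 0.0457). POLR1B lost its call without any of the 4 LOX-IMVI BR libraries with 6-thio-dG or of the control (adjusted p = 0.0903 to 0.125), NIP7 without any LOX-IMVI BR library or either A375 BIBR1532 library (0.0621 to 0.214), and LYAR without any library other than those of A375 with 6-thio-dG (0.0502 to 0.224).

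The estimate of the line difference was above 0 for 37 of 38 genes with either compound, with medians of 0.87 for 6-thio-dG and 0.95 for BIBR1532, against 0.10 and 0.14 over all genes. WDR12 had 1.65 ± 0.463 for 6-thio-dG (adjusted p = 0.0511) and DDX21 3.16 ± 0.839 for BIBR1532 (adjusted p = 0.0525), both short of a call. So for most genes called in A375 a difference from LOX-IMVI BR was not shown. When 1 library was left out, the medians of the 38 ran from 0.56 to 1.21 for 6-thio-dG and from 0.62 to 1.32 for BIBR1532. The number called then varied widely, among the 38 and among all genes. After removal of the GC trend the number called was 19 and 12, against 9.82% and 8.69% of all genes in that fit.

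Untreated LOX-IMVI BR and A375 cells differed in 49.8% of all genes, and in these 38 the LOX-IMVI BR control was higher for 4 and lower for 15. Of all genes 21.1% were called higher and 28.8% lower, and of those with symbols 32.3% lower. The median of the 38 was -0.51, against -0.12 over all genes. By role, lower in LOX-IMVI BR were 0 of 6 scaffold genes, 1 of 3 polymerase genes, 2 of 3 snoRNP genes, 5 of 11 small subunit genes and 7 of 15 large subunit genes. The 4 that were higher were NCL and the small subunit genes DDX10, WDR75 and UTP20.

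RRP12, an export factor, had 84.7 and 84.0 CPM in LOX-IMVI BR control cells, against 353 and 733 CPM in A375 control cells. The lines were far apart and RRP12 had the smallest adjusted p of the 38 (-2.69 ± 0.352, edgeR adjusted p = 1.96e-05). NOP14 had 98.6 and 95.9 CPM in LOX-IMVI BR control cells, against 232 and 396 CPM in A375 control cells, and RRP9 had 83.2 and 86.9 CPM in LOX-IMVI BR control cells, against 179 and 442 CPM in A375 control cells. Both were lower in LOX-IMVI BR, at -1.69 ± 0.304 (edgeR adjusted p = 0.000346) and -1.87 ± 0.371 (edgeR adjusted p = 0.000767). POLR1B had 88.9 and 84.7 CPM in LOX-IMVI BR control cells, against 258 and 236 CPM in A375 control cells and was lower, at -1.51 ± 0.282 (edgeR adjusted p = 0.000479). PPAN had 8.03 and 5.28 CPM in LOX-IMVI BR control cells, against 21.6 and 29.2 CPM in A375 control cells (-1.93 ± 0.367, edgeR adjusted p = 0.000547). PES1 had 171 and 181 CPM in LOX-IMVI BR control cells, against 307 and 765 CPM in A375 control cells (-1.61 ± 0.362, edgeR adjusted p = 0.00198), the lines again not overlapping. The calls of RRP12, NOP14, POLR1B, PPAN and RRP9 were kept in all 21 alternatives.

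DDX10 had 56.6 and 55.4 CPM in LOX-IMVI BR control cells, against 20.9 and 16.0 CPM in A375 control cells, higher in LOX-IMVI BR (1.60 ± 0.406, edgeR adjusted p = 0.00452, kept in all 21 alternatives). WDR75 had 140.2 and 133 CPM in LOX-IMVI BR control cells, against 39.3 and 37.5 CPM in A375 control cells (1.83 ± 0.588, edgeR adjusted p = 0.0186). In both genes the lines were far apart. NCL had 1930.3 and 1896 CPM in LOX-IMVI BR control cells, against 1183 and 795 CPM in A375 control cells (0.95 ± 0.349, edgeR adjusted p = 0.0343), and UTP20 had 146 and 137 CPM in LOX-IMVI BR control cells, against 70.6 and 45.9 CPM in A375 control cells (1.28 ± 0.431, edgeR adjusted p = 0.0229). The calls of WDR75, NCL and UTP20 were lost without either LOX-IMVI BR control library or the second A375 control library (adjusted p = 0.057 to 0.186), those of WDR75 and UTP20 also without the first (0.14 and 0.05), and those of NCL and UTP20 without the second A375 BIBR1532 library (0.0667 and 0.0508).

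FBL had 166 and 169 CPM in LOX-IMVI BR control cells, against 178 and 442 CPM in A375 control cells. NOP56 had 457 and 442 CPM in LOX-IMVI BR control cells, against 567 and 1195 CPM in A375 control cells. The first A375 control library was near the LOX-IMVI BR level of FBL and the second far above. FBL was called lower (-0.89 ± 0.353, edgeR adjusted p = 0.0487), but at -0.08 (adjusted p = 0.797) without the second A375 control library, and at 0.22 (adjusted p = 0.424) with the GC trend removed and replicate numbers as a block. NOP56 was lower (-0.97 ± 0.323, edgeR adjusted p = 0.0217), but not without that library (adjusted p = 0.209) or either LOX-IMVI BR control library (0.103 and 0.123), nor with the GC trend removed (0.484). NOB1 was lower as well (-1.29 ± 0.352, edgeR adjusted p = 0.00724), but not without the second A375 (adjusted p = 0.081) or either LOX-IMVI BR control library (0.0576 and 0.0577). NPM1, NOLC1, POLR1A, POLR1C, NOP58, BOP1, WDR12 and BYSL were not called, with estimates between -0.74 for BYSL and 0.28 for POLR1A.

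**Figure D5:**
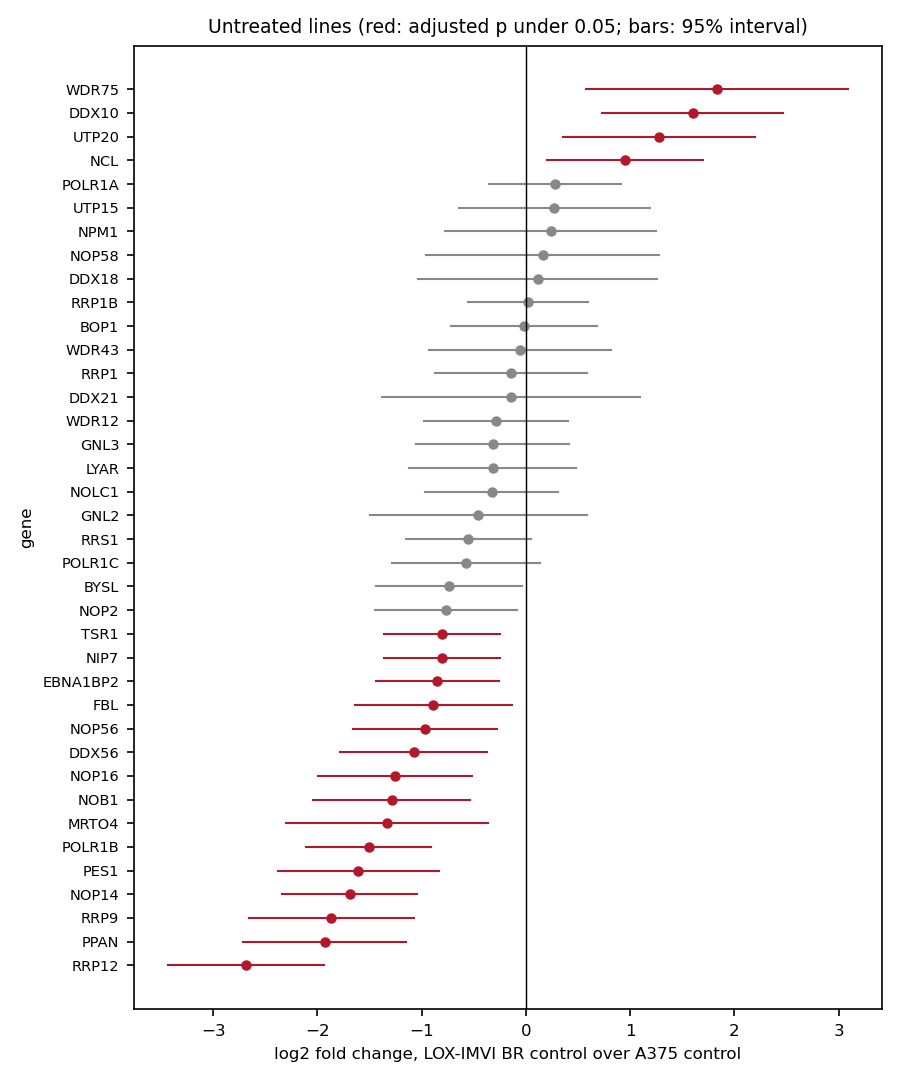
Log2 fold change of LOX-IMVI BR control over A375 control cells for each of the 38 genes, ordered by size, with 95% intervals as bars. Red marks an adjusted p under 0.05: 4 genes at the top (WDR75, DDX10, UTP20 and NCL) and 15 at the bottom, down to RRP12 at -2.69.

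The calls were set against GC content, because A375 replicates differed along it. Levels of all tested genes with a known GC content were taken relative to the gene's mean over the 12 libraries. In A375 the median of those of lowest GC content was -2.10 and -0.15 on the log2 scale with 6-thio-dG. It was -1.38 and -1.06 with BIBR1532 and -0.18 and -0.04 in the control. In LOX-IMVI BR it was 0.62 and 0.59, 1.05 and 1.10, and 0.83 and 0.81, in that order. The part of this trend in the calls was not tested beyond the refits. Among the 18 genes below the median GC content, 6 were lower in A375 with 6-thio-dG and 11 with BIBR1532, and among the other 20, 3 and 6. Of all genes with symbols, of any GC content, 12.9% and 10.3% were called lower, so the 3 of 20 were near the background. A share for genes of low GC content alone was not computed. Between the untreated lines, the 4 genes higher in LOX-IMVI BR were all of low GC content, and of the 15 lower genes 2 were of low and 13 of high GC content. Of all genes 21.1% were called higher and 28.8% lower there. With the GC trend removed, 6 of those 13 lost their call: DDX56, TSR1, EBNA1BP2, NOP56, MRTO4 and FBL (edgeR adjusted p = 0.0866 to 0.916). Other genes gained a call, so 14 of the 38 were lower and 8 higher in that fit, against 4272 and 4596 of all 14032 genes. Of the 11 genes with CACGTG in the promoter, 3 were called lower in A375 with 6-thio-dG and 7 with BIBR1532, and of the 20 without it, 4 and 8. The same 12.9% and 10.3% of all genes with symbols stand beside these counts. The median log2 fold changes of the genes with CACGTG were -0.79 and -1.31, and those of the genes without it -0.95 and -1.03.

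A wider list of 127 other genes of the pathway, of which 125 were tested, was counted in the same way. In A375 38 were lower and none higher with 6-thio-dG, and 44 were lower and 1 higher with BIBR1532, beside 12.9% and 10.3% of all genes with symbols called lower. The fit of A375 alone called 2 and 3 of the 125 lower, where 2.02% and 0.558% of all genes were called lower, so the 2 were near the background. The median log2 fold changes of the 125 were -0.81 with 6-thio-dG and -0.87 with BIBR1532. They were -0.47 and -0.45 without the second control library, and -1.08 and -1.03 without the first. Without 1 library the number called varied widely, among the 125 and among all genes. Without the first or the second BIBR1532 library the BIBR1532 median of the 125 was -0.82 and -0.87. Most BIBR1532 calls were then lost, among the 125 and among all genes alike. DKC1, the pseudouridine synthase of box H/ACA snoRNPs and also a part of telomerase, had 161 and 196 CPM with 6-thio-dG, against 528 and 575 CPM in control cells (-1.62 ± 0.261, edgeR adjusted p = 0.00119). NIFK, a nucleolar partner of the Ki-67 protein, had 20.6 and 20.8 CPM with BIBR1532, against 92.1 and 149 CPM in control cells (-2.54 ± 0.448, edgeR adjusted p = 0.0023). MPHOSPH6, a cofactor of the RNA exosome, was lower with both, at -1.81 ± 0.356 with 6-thio-dG and -1.95 ± 0.355 with BIBR1532 (edgeR adjusted p = 0.00401 and 0.00285). In LOX-IMVI BR none of the 125 was called with either compound by edgeR over all 12 libraries or by DESeq2, with 3 at an unadjusted p under 0.05 for each. Between the untreated lines 3 of the 125 were higher and 40 lower in LOX-IMVI BR, a share lower close to the 32.3% of all genes with symbols. The median of the 125 was -0.54 between the untreated lines, and -0.27 without the second A375 control library. Fewer were called lower without that library or either LOX-IMVI BR control library, and more without either A375 6-thio-dG library. By part of the pathway, 17 of 44 large subunit genes, 9 of 42 small subunit genes, 5 of 13 snoRNP genes, 4 of 12 polymerase I genes and 3 of 14 exosome genes were lower in A375 with 6-thio-dG. With BIBR1532 these were 19, 15, 3, 4 and 3.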

How the data were processed

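RNA was measured in 12 libraries of 2 melanoma cell lines, 2 libraries per line and treatment. Per the labels' protocols, RNA was taken with TRIzol from cells in multiwell plates, and sequencing libraries were not strand-specific (TruSeq), so overlapping and antisense genes cannot be separated. The authors deposited raw read counts per gene, in 1 table of 75253 rows. The builds GRCh37 and hg19 and the tools featureCounts 1.5.1, GATK, Picard and STAR are listed, without roles, per the submitters' processing notes. Dropped were 4 rows with ambiguous date-like names (at most 0.000913% of a library). Rows with NONCODE identifiers held 4.42% to 7.41% of counts.

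Counts were fitted with edgeR 4.0.16 (R 4.3.3) in a robust quasi-likelihood model with 6 group means over all 12 libraries, 6 residual degrees of freedom, TMM scaling and edgeR's default filter on low counts, which left 29114 genes (14439 with symbols). Each of 9 comparisons was adjusted by Benjamini-Hochberg over all 29114, and a gene was called at an adjusted p under 0.05. Errors beside log2 fold changes are SEs and intervals are 95%. With 2 libraries a group, precision rests on the spread shared across groups. The test was checked on counts simulated with planted changes from a mean profile common to all libraries. That simulation had no GC trend and the same spread in both lines, so it does not cover those features of the data. Up to 22 alternatives were run, among them DESeq2 1.42.0 and edgeR with each library's trend along transcript GC content (a spline with 5 degrees of freedom) as an offset. Promoters came from RefSeq, GRCh38.p14.

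The 38 genes, the other lists and the tests were chosen with earlier results of these data known. Full values were given for 14 genes chosen by role whatever their result, and in each comparison for up to 6 called genes with the smallest adjusted p. Some other genes were named after their values were seen.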

Additional observations from a re-analysis of the deposited data

Results flagged for a closer look

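For 3 results the effect of a compound differed between the lines in a direct test of the difference, 2 of the 38 genes with 6-thio-dG and 1 with BIBR1532. Of all genes 2.48% and 2.09% were called in the same direction, so the BIBR1532 count was near the background. With 6-thio-dG, POLR1B was 1.75 log2 units higher in its response in LOX-IMVI BR than in A375, with fold changes of 0.33 in LOX-IMVI BR and -1.42 in A375. NIP7 differed by 1.41 log2 units, with 0.67 in LOX-IMVI BR and -0.73 in A375. With BIBR1532, LYAR differed by 2.10 log2 units, with 0.55 in LOX-IMVI BR and -1.54 in A375. The adjusted p in edgeR's quasi-likelihood test was 0.0183 for POLR1B, 0.0382 for NIP7 and 0.0457 for LYAR. Of 21 alternatives, the call was kept in 17 for POLR1B, in 11 for NIP7 and in 7 for LYAR.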

How the results depend on the processing

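With 2 libraries a group, calls depended on single libraries of both lines and on the treatment of GC content. Counts below are of the 38 genes. Beside many of them, in brackets, stand the genes called in the same direction out of all genes tested in the same fit. A count without brackets is not set against that background here. Where 1 library was left out, medians of the log2 fold changes of the 38 are given, in place of counts or beside them. In A375 the number lower with 6-thio-dG was 9 (2390 of 29114). It was 5 with upper-quartile scaling (1337 of 29114), 20 with DESeq2 (3016 of 29114) and 26 with no filter on low counts (4477 of 58258). It was 3 with symbol-named genes only (1284 of 14422), a count near the background. It was 24 with the GC trend removed (2784 of 14032), 21 with that and a replicate block, and 0 in the line alone (486 of 24026). Without 1 library it was 5 to 18, and the number called among all genes varied widely as well. The median then ran from -1.06 to -0.60. The number lower with BIBR1532 was 17 (2121 of 29114). It was 29 with the GC trend removed (2481 of 14032), 29 with the block added, and 0 in the line alone (134 of 24026). Without 1 library it was 0 to 28, and the number called among all genes again varied widely. The median then ran from -1.33 to -0.58. In LOX-IMVI BR with 6-thio-dG, 1 was higher with symbol-named genes only (1104 of 14422), 6 with the GC trend removed (1813 of 14032) and 6 with the block added (1666 of 14032). In the line alone 16 were higher (7708 of 24087) and 12 lower (7411 of 24087). Without 1 library the median ran from -0.03 to 0.08. With BIBR1532, 1 was lower with the GC trend removed (729 of 14032) and 1 with the block added (574 of 14032). In the line alone 7 were higher (5559 of 24087) and 13 lower (5243 of 24087). Between 6-thio-dG and BIBR1532 in A375, 1 was higher (2198 of 58258) and 1 lower (4199 of 58258) with no filter. There 8 were higher with the GC trend removed (1897 of 14032) and 6 with the block added (1665 of 14032). Without 1 library the median ran from -0.20 to 0.23, and calls in both directions appeared. In LOX-IMVI BR the number higher was 4 with upper-quartile scaling (4595 of 29114), 2 with no filter (3544 of 58258) and 3 with a filter of 1 CPM in 2 libraries (2564 of 23696). It was 4 with symbol-named genes only (1194 of 14422), 7 with the GC trend removed (1998 of 14032) and 6 with the block added (1859 of 14032). In the line alone 20 were higher (8160 of 24087) and 9 lower (7952 of 24087). Without 1 library the median ran from 0.02 to 0.13. The number with a line difference for 6-thio-dG (2) was 1 with upper-quartile scaling (565 of 29114), 4 with DESeq2 (1049 of 29114) and 11 with no filter (1681 of 58258). It was 1 with a replicate block (492 of 29114), 19 with the GC trend removed (1378 of 14032) and 20 with the block added (1262 of 14032). Without 1 library the median ran from 0.56 to 1.21. The number with a line difference for BIBR1532 was 1 (609 of 29114). It was 0 with DESeq2 size factors, 7 with DESeq2, 10 with no filter, 0 at 1 CPM and 0 with symbol-named genes only. It was 2 with a replicate block, 12 with the GC trend removed (1220 of 14032) and 14 with the block added. Without 1 library it was 0 to 15, and the number called among all genes varied widely too. The median then ran from 0.62 to 1.32. Between untreated lines, 8 were higher with the GC trend removed (4596 of 14032) and 7 with the block added (4335 of 14032). Lower were 14 with the GC trend removed (4272 of 14032), 6 with a replicate block (6733 of 29114) and 9 with both (3776 of 14032). Without 1 library the median ran from -0.65 to -0.27. Directions reversed for NOP58 between the compounds in A375 without the second 6-thio-dG library (-1.43), for FBL between untreated lines with the GC trend removed and a block (0.22), and for BOP1 between untreated lines with the GC trend removed (0.73) and with the block added (0.90). The causes were not tested. Of 2988 values for named genes, 2626 kept direction and side of the threshold, 170 passed it newly, 188 lost it and 4 reversed.

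Replicate numbers were not taken to pair samples, since the correlations of deviations between same-numbered libraries were 0.35, -0.089 and -0.14 in A375 and 0.018, -0.0037 and 0.029 in LOX-IMVI BR. With a replicate block 7 of the 38 were lower in A375 with 6-thio-dG and 14 with BIBR1532, against 2154 and 2087 of all 29114 genes.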
